A study of Homo sapiens with 52 samples.

Results

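The genes described here are 50 genes that act in the G2 phase and in mitosis, chosen by name from the gene-level tables of an RNA sequencing dataset of NRP1 knockdown in breast cancer cells. The tables list 78894 genes in each of 52 samples. All 50 names were found, each in 1 row. NRP1 (neuropilin 1) is a cell surface co-receptor for semaphorins and vascular endothelial growth factors. The cells were SUM159PT, MDA-MB-231 and HS578T, 3 lines that the study uses as models of claudin-low breast cancer. Every line was sampled in 6 groups. Small interfering RNA was reverse transfected at 20 nM and RNA was taken after 72 hrs, with a non-targeting sequence (siNT) or one of the NRP1 sequences siNRP1#3 and siNRP1#5. Short hairpin RNA was delivered by lentivirus in the pLKO.1 vector with puromycin selection and RNA was taken 48 hrs after seeding, with shNT, shNRP1#3 or shNRP1#5. The #3 sequences target transmembrane NRP1 and the #5 sequences target total NRP1. siNRP1#5 and shNRP1#5 share 1 sequence, while siNRP1#3 and shNRP1#3 differ in sequence. Groups held 3 samples, except that SUM159PT siNRP1#5 lacked replicate 1 and HS578T shNRP1#3 lacked replicate 3, leaving 2 each. Consecutive passages of a transduced population served as the shRNA replicates, so p-values measure the spread between these samples only.

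As background, cells copy their DNA in S phase, prepare for division in G2 and separate the copies in mitosis. Entry into mitosis is driven by CDK1 bound to cyclin A or cyclin B, which the CDC25 phosphatases switch on. Aurora and Polo kinases then build the spindle, the kinetochore proteins attach chromosomes to it, and the spindle checkpoint holds the cell until every chromosome is attached. Ubiquitination of securin and cyclin B by the anaphase-promoting complex starts anaphase, and a separate set of proteins cuts the cell in 2 at cytokinesis. Most of these genes are transcribed in G2 and mitosis and are low in resting cells, under the DREAM and MuvB complexes with MYBL2 and FOXM1. In breast cancer their joint level is widely read as a proliferation signature. In bulk RNA, fewer cells in G2 and mitosis and less RNA per such cell cannot be told apart.

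Between 25310443 and 72003442 expected counts were summed per sample (median 44804505), and the lowest count of any of the 50 genes in any sample was 32, for SPC25. All 50 genes were therefore tested in every fit. Levels are given as CPM, expected counts divided by the library total with TMM factors taken over all 52 samples, as mean ± SD, with n = 3 or, in the pair of smaller groups, n = 2. Differences are log2 fold changes ± SE from edgeR's quasi-likelihood test, with p-values adjusted by Benjamini-Hochberg over all genes of the fit and a threshold of 0.05. The median SE of the 50 genes was between 0.48 and 0.54 in the SUM159PT comparisons, between 0.35 and 0.39 in HS578T and 0.14 in MDA-MB-231, so a gene that missed the threshold is not shown to be unchanged, least of all in SUM159PT. NRP1 itself was lower in all 12 knockdown comparisons and passed the test in 11. The exception was HS578T shNRP1#3 (log2 fold change -1.59, adjusted p = 0.069). The claudins CLDN3, CLDN4 and CLDN7 and CDH1, whose low level defines the claudin-low type, were not all low in MDA-MB-231, where CLDN4 averaged 178 CPM in siNT and CLDN7 34.9 CPM.

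Marker genes of another line were seen in some samples, most of all in the HS578T siRNA groups, before any comparison was made. From 60 marker genes, the 3 HS578T siNRP1#5 samples held 23.0%, 17.8% and 12.9% of the MDA-MB-231 level, and from 71 markers 1.75%, 8.79% and 1.48% of the SUM159PT level. The HS578T siNRP1#3 samples held between 2.43% and 7.12% of the MDA-MB-231 level, against 0.651% to 2.19% in HS578T siNT. Markers were chosen to average at most 0.5 CPM in a line's own siNT and shNT samples and at least 20 CPM in the other line's. A low share in HS578T siNT follows from that choice. At those shares, MDA-MB-231 RNA would bring 1337, 1035 and 750.0 CPM of the 5248, 6992 and 6408 CPM summed over the 50 genes in HS578T siNRP1#5. The comparisons of HS578T siRNA groups are therefore also given with such reads subtracted. In MDA-MB-231 shNRP1#3, replicate 3 held 2.39% of the SUM159PT level and 2.12% of the HS578T level. Whether a treatment itself raised such marker genes was not tested.

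Promoters of these genes are known to carry the CCAAT box, bound by NF-Y, and the cell cycle homology region (CHR, TTTGAA or TTTAAA), bound by the MuvB complex. RefSeq windows on GRCh38.p14, from 250 bases before to 50 bases after each gene's start, matched 43 of the 50 genes and gave 53 windows. UBE2C, FOXM1, TTK, RACGAP1, BIRC5, TPX2 and AURKA had no entry. On either strand, CCAAT was in 79.2% of the 53 windows and in 34.6% of all 35116 windows of that length. TTTGAA was in 66.0% and 15.2%, and TTTAAA in 30.2% and 12.2%. CCAAT with either CHR form was in 64.2% of the member windows and in 9.27% of all windows, or in 31 of 43 genes. These are matches of letters and not mapped binding sites, and their overlap with other motifs was not examined.

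The stretches printed here, 120 bases from 100 before to 20 after the start, show how close the boxes lie in 3 genes that did not pass most tests below (CCNB1, CDC20 and PLK1) and in 2 that passed several (CCNB2 and KIF18B). Each is written 5′ to 3′ on the gene's strand, with capitals marking the CCAAT box and the CHR in that orientation.
CCNB1, chr5:69167050-69167169, plus strand: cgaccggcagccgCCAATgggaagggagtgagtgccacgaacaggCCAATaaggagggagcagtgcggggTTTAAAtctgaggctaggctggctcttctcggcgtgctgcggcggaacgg
CCNB2, chr15:59105046-59105165, plus strand: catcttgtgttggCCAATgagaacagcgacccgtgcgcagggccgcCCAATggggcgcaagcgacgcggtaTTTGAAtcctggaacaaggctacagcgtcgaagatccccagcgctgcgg
CDC20, chr1:43358881-43359000, plus strand: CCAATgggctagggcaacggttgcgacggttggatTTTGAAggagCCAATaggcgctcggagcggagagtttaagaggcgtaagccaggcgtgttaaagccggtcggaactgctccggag
PLK1, chr16:23678789-23678908, plus strand: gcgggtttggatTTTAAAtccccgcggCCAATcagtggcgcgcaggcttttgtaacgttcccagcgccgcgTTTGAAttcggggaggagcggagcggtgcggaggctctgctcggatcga
KIF18B, chr17:44947754-44947873, minus strand: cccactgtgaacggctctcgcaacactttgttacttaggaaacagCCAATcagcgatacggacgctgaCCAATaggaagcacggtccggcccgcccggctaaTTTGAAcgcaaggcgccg

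Compared per transcript length, in TPM (scaled for length and depth) averaged over the 52 samples, the ubiquitin-conjugating enzyme UBE2C was the most abundant of the 50 genes at 386.5 TPM. The anaphase activator CDC20 followed at 308.9, securin (PTTG1) at 300.2, CCNB1 at 264.6 and CDC25B at 181.9 TPM. At the low end stood the kinetochore motor CENPE at 4.62 TPM and the cytokinesis kinesin KIF14 at 2.64 TPM. PTTG1 and KIF4A have near-identical copies in the genome (PTTG2 and PTTG3P, KIF4B), so their counts are uncertain where reads could be split.

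In many groups most of the 50 genes lay on the same side of the group mean in a given replicate. In SUM159PT siNT replicate 2, 48 of the 50 genes were below their group mean, with a median deviation of -0.86 on the log2 scale. In SUM159PT siNRP1#3 replicate 2, 49 were below, with a median deviation of -1.18. HS578T siNRP1#3 replicate 1 and HS578T shNRP1#3 replicate 1 each had all 50 below, by medians of -0.44 and -0.47. HS578T siNT, the control of the HS578T siRNA groups, differed from this, with 22, 25 and 29 of the 50 genes above the group mean in its 3 replicates. Median deviations in MDA-MB-231 samples stayed within 0.18 of 0. The same spread shows in the summed level of the 50 genes. In SUM159PT it was 3511 ± 1124 CPM with siNT, 2116 ± 879.7 with siNRP1#3, 4301 ± 1435 with siNRP1#5, 7508 ± 1800 with shNT, 6064 ± 1899 with shNRP1#3 and 5029 ± 1136 with shNRP1#5. In MDA-MB-231 the sums were 5811 ± 449.8, 4701 ± 368, 4535 ± 197, 6087 ± 379, 5884 ± 399 and 6444 ± 434 CPM in the same order. In HS578T they were 4811 ± 940.1, 2492 ± 523, 6216 ± 888, 6143 ± 1862, 5329 ± 1855 and 6078 ± 1540 CPM. The siNRP1#3 groups of HS578T and SUM159PT had the lowest mean sums of all groups, and the SUM159PT siNRP1#3 samples overlapped those of siNT. Within each same-number pair of SUM159PT the sum was lower with siNRP1#3, at 2486, 1112 and 2751 CPM against 3554, 2366 and 4613 CPM with siNT.

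**Figure D1:**
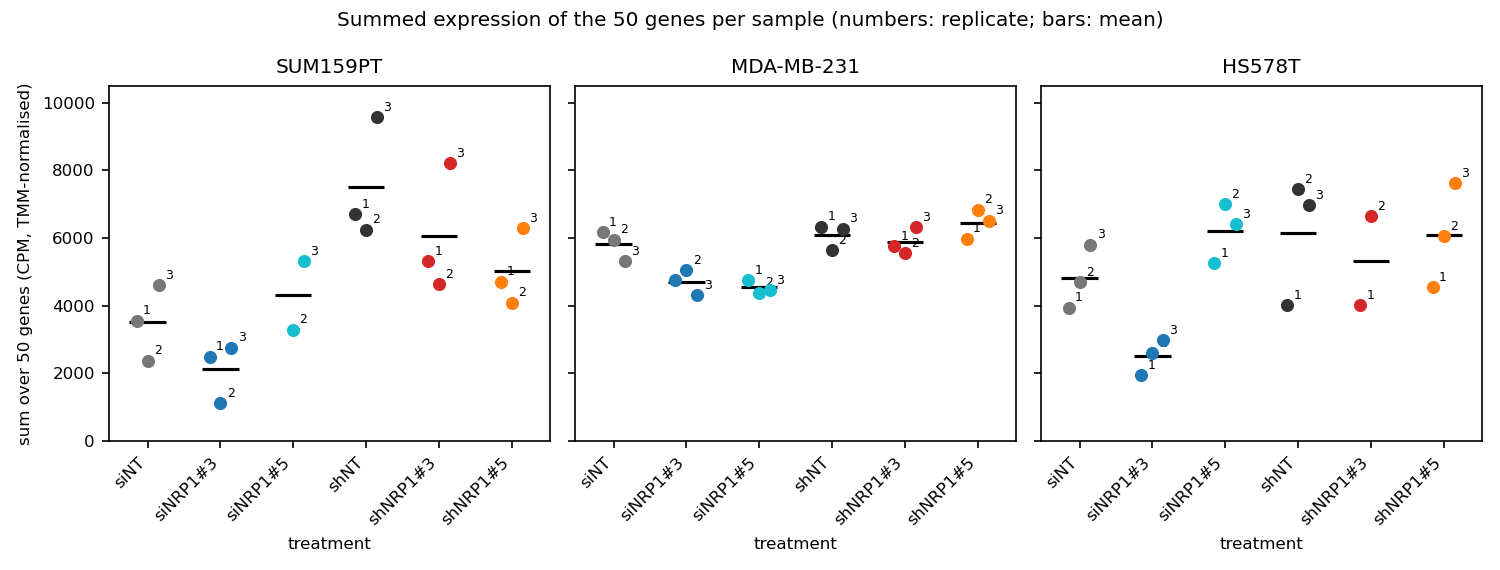
Summed level of the 50 genes (CPM, y axis) in each of the 52 samples, by cell line and group; points are samples and bars are group means. SUM159PT siNRP1#3 (mean 2116 CPM) and HS578T siNRP1#3 (mean 2492 CPM) are the lowest groups, and the MDA-MB-231 samples are the least spread.

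The first question was which of the 50 genes changed when transmembrane NRP1 was targeted by siRNA. With siNRP1#3, the CDC25B and CDC25C phosphatases, which activate CDK1, fell in all 3 lines, and the spindle pole kinase AURKA fell in SUM159PT and MDA-MB-231. Calls of lower in all 3 lines were thus made for 2 of the 50 genes, and for 124 of the 16331 genes tested in every line. In SUM159PT, 3 of the 50 genes passed the test, all lower (6% of members against 5.5% of all genes lower). In MDA-MB-231, 14 passed, all lower (28% against 14.3%), and in HS578T 6 passed, all lower (12% against 2.34%). The median log2 fold change of the 50 genes was -0.60 in SUM159PT, with 49 of 50 negative, -0.26 in MDA-MB-231, with 41 negative, and -0.81 in HS578T, with 50 negative. Over all genes tested in SUM159PT the median was -0.01. In 40 of the 50 genes the change was negative in all 3 lines, as it was in 24.04% of the 16331 genes tested in every line.

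AURKA (ENSG00000087586.18, chromosome 20, 56369389 to 56392337 on the minus strand, GRCh38) encodes Aurora kinase A, which matures the centrosomes and builds the spindle. In SUM159PT its level was 48.1, 31.3 and 86.2 CPM in the siNT samples and 16.5, 4.89 and 16.6 CPM in the siNRP1#3 samples. In MDA-MB-231 it was 221, 249 and 222 CPM with siNT and 76.3, 87.3 and 75.9 CPM with siNRP1#3. In HS578T the siNT samples were at 92.3, 101 and 144 CPM and the siNRP1#3 samples at 27.2, 41.4 and 49.1 CPM. Every siNRP1#3 sample was below every siNT sample of its line. AURKA fell by 2.10 ± 0.47 on the log2 scale in SUM159PT (adjusted p = 0.012, edgeR) and by 1.50 ± 0.10 in MDA-MB-231 (adjusted p = 1.08e-08). Its change in HS578T, -1.48 ± 0.42, missed the threshold (adjusted p = 0.0512) and passed it under 6 of the alternatives, among them DESeq2 and the subtraction of other lines' reads.

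CDC25B (ENSG00000101224.18, chromosome 20, 3786772 to 3806121 on the plus strand) encodes the phosphatase that starts CDK1 activation in G2. SUM159PT siNT samples were at 809.9, 1037 and 659 CPM and siNRP1#3 samples at 415, 508 and 321 CPM. MDA-MB-231 had 219, 248 and 202 CPM with siNT and 137, 141 and 136 CPM with siNRP1#3, and HS578T had 495, 693 and 895 CPM with siNT and 225, 263 and 333 CPM with siNRP1#3. The groups did not overlap in any line. CDC25B fell by edgeR's test, with log2 changes of -0.99 ± 0.21, -0.66 ± 0.13 and -1.299 ± 0.22 in SUM159PT, MDA-MB-231 and HS578T (adjusted p = 0.00756, 0.000766 and 0.0028). CDC25C (ENSG00000158402.21, chromosome 5, 138285269 to 138338355 on the minus strand), its paralog, acts at mitotic entry. In SUM159PT it stood at 13.3, 9.59 and 19.4 CPM with siNT and 5.73, 1.42 and 6.62 CPM with siNRP1#3. In MDA-MB-231 CDC25C was at 22.6, 23.9 and 23.6 CPM with siNT and 13.6, 13.8 and 11.3 CPM with siNRP1#3, and in HS578T at 25.7, 31.2 and 39.6 CPM and 11, 13.4 and 13.8 CPM in the same order. Again every siNRP1#3 sample was below every siNT sample. CDC25C fell with log2 changes of -1.59 ± 0.41, -0.82 ± 0.15 and -1.301 ± 0.25 in the 3 lines (adjusted p = 0.0227, 0.000514 and 0.00581). The SUM159PT call for CDC25C was lost without siNRP1#3 replicate 1, without siNT replicate 3 and in a fit of the 2 groups alone, where the log2 changes were -1.77, -1.27 and -1.59. AURKA and CDC25B kept their calls in SUM159PT and MDA-MB-231 under every alternative run, and CDC25B and CDC25C did so in HS578T.

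**Figure D2:**
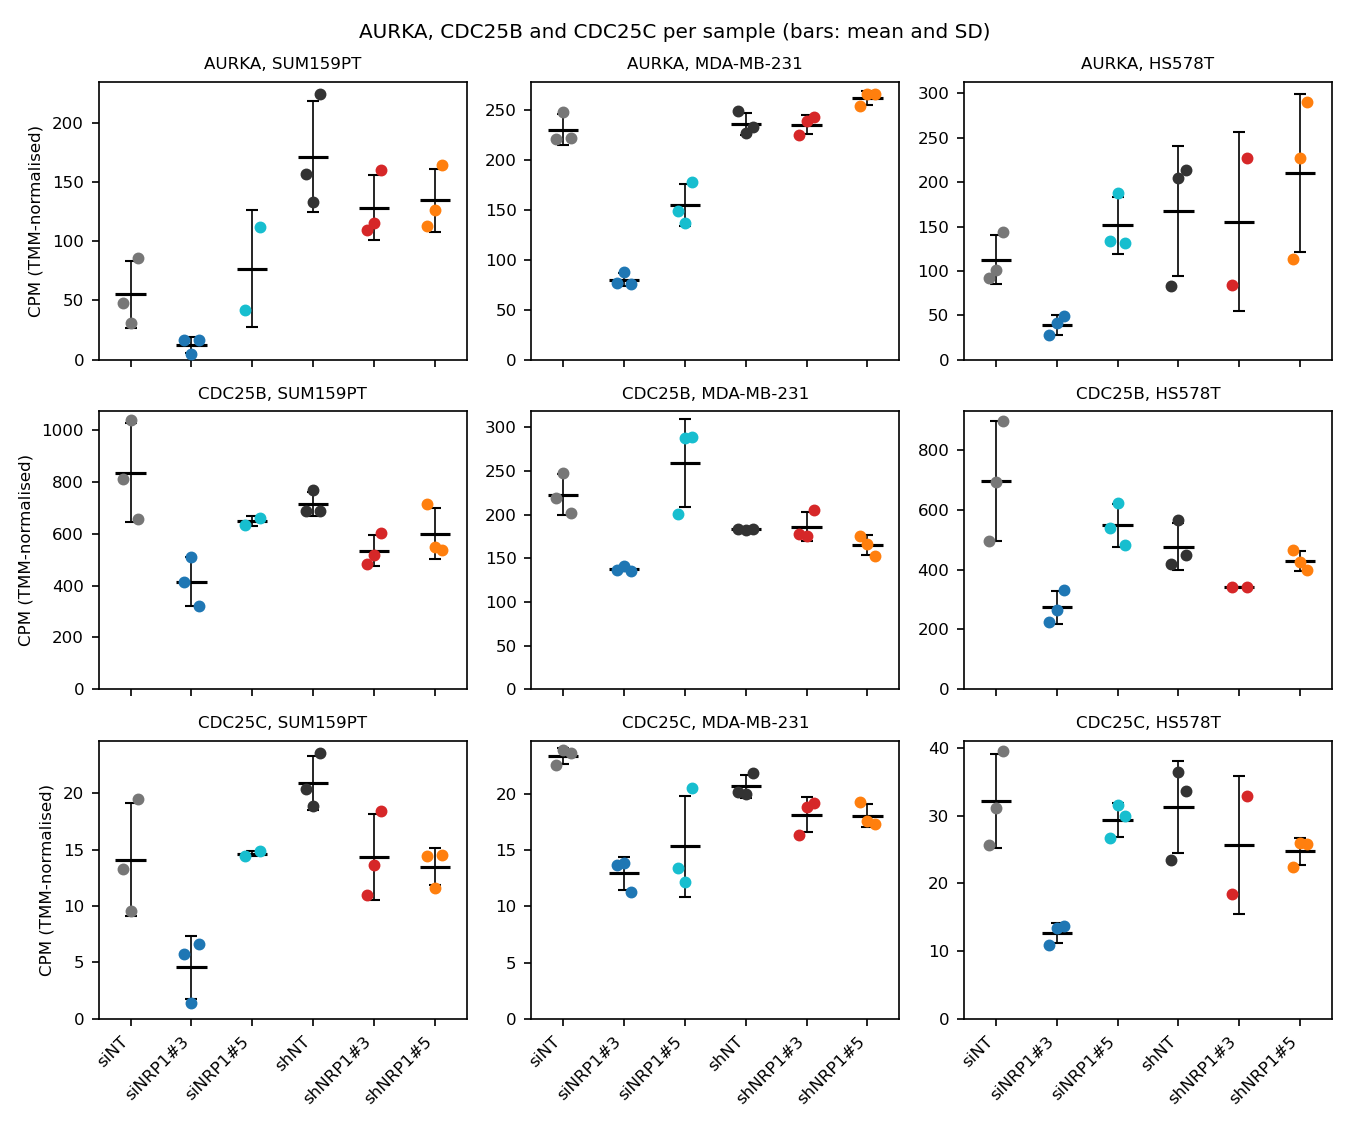
Level (CPM, y axis) of AURKA, CDC25B and CDC25C in each sample, by cell line and group; points are samples and bars are group means. In the siNRP1#3 groups all 3 genes sit below every siNT sample of the same line, and in MDA-MB-231 AURKA averages 79.8 CPM with siNRP1#3 and 230.5 CPM with siNT.

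Other members passed the test with siNRP1#3 in 1 or 2 lines. Cyclin B2 (CCNB2) fell in MDA-MB-231 (log2 -0.39 ± 0.11) and HS578T (-1.15 ± 0.27). In MDA-MB-231 the microtubule-depolymerising kinesin KIF18B fell by 0.91 ± 0.13 (adjusted p = 4.57e-05, edgeR), from 88.3, 102 and 85.9 CPM to 46.6, 43.3 and 54.7 CPM. The cytokinesis exchange factor ECT2 fell by 0.79 ± 0.20 and the kinetochore protein CENPF by 0.68 ± 0.22. FOXM1, CCNA2, RACGAP1, TPX2, INCENP, ESPL1 and PRC1 fell in MDA-MB-231 by 0.36 to 0.50. In HS578T the largest falls were those of the cytokinesis kinesin KIF20A (-1.56 ± 0.34, adjusted p = 0.0154) and the spindle pole protein ASPM (-1.53 ± 0.40, adjusted p = 0.0388), and securin (PTTG1) fell by 1.02 ± 0.25. By role, the 7 mitotic entry genes had 2, 5 and 3 members lower in SUM159PT, MDA-MB-231 and HS578T, while none of the 4 spindle checkpoint genes passed in any line.

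The number of calls with siNRP1#3 moved with the fit. With the replicate number as a block, 21 of the 50 genes passed in SUM159PT, all lower, where samples of the same number varied together. The share of all genes called in that fit was not kept, so the count cannot be set against it. In MDA-MB-231 the count was 9 without siNRP1#3 replicate 1 and 9 without siNT replicate 1. In HS578T it was 2 without siNRP1#3 replicate 1, 3 without siNT replicate 2, 3 without siNT replicate 3, and 12 with GC content offsets. With other lines' reads subtracted, 6 passed in HS578T and ASPM was no longer among the calls (log2 -1.78). The ASPM call was also lost without any of the 3 siNRP1#3 samples, without siNT replicate 1 and without siNT replicate 2, at -1.28 to -1.71. KIF20A lost its call without siNRP1#3 replicate 1 (-1.37) and without siNT replicate 3 (-1.29), and CCNB2 in HS578T without those samples and without siNT replicate 2, at -1.02 to -1.19. In MDA-MB-231 CENPF lost its call without any of the 3 siNRP1#3 samples or without siNT replicate 1, at -0.51 to -0.73, and ECT2 without siNT replicate 1 (-0.60). Without siNRP1#3 replicate 2, the SUM159PT median rose from -0.60 to -0.19. Every siNRP1#3 sample was below every siNT sample for 22 of the 50 genes in HS578T (13.5% of all genes), 19 in MDA-MB-231 (22.4%) and 6 in SUM159PT (14.9%).

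The second siRNA, siNRP1#5, targets total NRP1, and its called genes were lower in MDA-MB-231. The few higher calls in HS578T and SUM159PT were near or below the share of all genes. In MDA-MB-231, 23 of the 50 genes passed the test, all lower (46% against 14.9% of all genes lower), with a median log2 fold change of -0.43. In HS578T 6 passed, all higher (12% against 10.1%), with a median of 0.48, and in SUM159PT 1 passed, higher (2% against 9%), with a median of 0.39. The siNRP1#5 and siNRP1#3 comparisons share their siNT samples and are not independent. Every siNRP1#5 sample was below every siNT sample for 21 of the 50 genes in MDA-MB-231 (17% of all genes) and above for 13 in HS578T (18.3%) and 5 in SUM159PT (16.8%).

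In MDA-MB-231 the cytokinesis genes fell most widely with siNRP1#5, with 7 of 9 lower and a median of -0.73. CEP55 (ENSG00000138180.16, chromosome 10, 93496612 to 93529092), a midbody protein needed for the final cut between daughter cells, was at 87.2, 65.7 and 58.3 CPM with siNT and 29.4, 13.4 and 10.6 CPM with siNRP1#5. The groups did not overlap, and CEP55 fell by 1.97 ± 0.28 (adjusted p = 4.58e-05, edgeR). The kinesin KIF20B fell by 1.40 ± 0.36 and KIF14, the kinesin that recruits the midbody kinase CIT, by 1.21 ± 0.28 (adjusted p = 0.00827 and 0.0028). Their siNT samples were at 52, 31.1 and 28.7 CPM and 28.1, 18.3 and 17.5 CPM, and their siNRP1#5 samples at 23.4, 11.3 and 7.11 CPM and 14.8, 6.06 and 6.3 CPM. Among kinetochore genes CENPE fell by 0.97 ± 0.29 and CENPF by 0.88 ± 0.23, and in the chromosomal passenger complex, which corrects wrong attachments, INCENP fell by 0.78 ± 0.12 and CDCA8 by 0.64 ± 0.11. AURKA fell by 0.56 ± 0.10, from the siNT values above to 149, 137 and 178 CPM. The remaining called genes, ANLN, ASPM, ECT2, PTTG1, CCNA2, CDCA3, KIF18B, BUB1, CDC25C, TPX2, PRC1, RACGAP1, CCNB2, SPC25 and KIF2C, fell by 0.34 to 0.79. A fit of the 2 groups alone called 10, and CENPE lost its call without siNT replicate 1, siNRP1#5 replicate 2 or siNRP1#5 replicate 3, at log2 changes of -0.66, -0.88 and -0.72.

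In HS578T, CDK1 rose most with siNRP1#5. It was at 80.0, 85.5 and 33 CPM in siNT and 116, 259 and 371 CPM in siNRP1#5, and it rose by 1.90 ± 0.41 (adjusted p = 0.00523, edgeR). The lowest siNRP1#5 sample was above the highest siNT sample. The spindle protein NUSAP1 rose by 1.28 ± 0.31, CENPF by 1.25 ± 0.40, the proliferation marker MKI67 by 1.21 ± 0.33, the checkpoint protein MAD2L1 by 1.04 ± 0.35 and UBE2C by 0.93 ± 0.28. These are the samples with 12.9% to 23.0% of the MDA-MB-231 level. After other lines' reads were subtracted 5 genes passed, all higher, and the calls for CENPF and MKI67 were lost, at log2 changes of 0.91 and 0.96. The MAD2L1 call in HS578T was lost in 6 of 13 alternatives, which were GC content offsets (log2 change 0.61, adjusted p = 0.129, edgeR), siNRP1#5 replicate 2 or 3 left out and each siNT replicate left out (0.72 to 1.16). CENPF and MKI67 also lost their calls without siNRP1#5 replicate 2, siNT replicate 2 or siNT replicate 3, and CENPF without siNRP1#5 replicate 3. The count was 3 without siNRP1#5 replicate 2, 2 without siNT replicate 2 and 3 without siNT replicate 3. In SUM159PT, MAD2L1 alone passed, with 36.8, 26.1 and 59 CPM in siNT and 114 and 115 CPM in siNRP1#5. Its change of 1.53 ± 0.42 (adjusted p = 0.0202) lost its call without either siNRP1#5 sample, without siNT replicate 1 and without siNT replicate 2, at 1.27 to 1.54, and the median of the 50 genes ranged from -0.18 to 0.81 as single samples were left out.

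**Figure D3:**
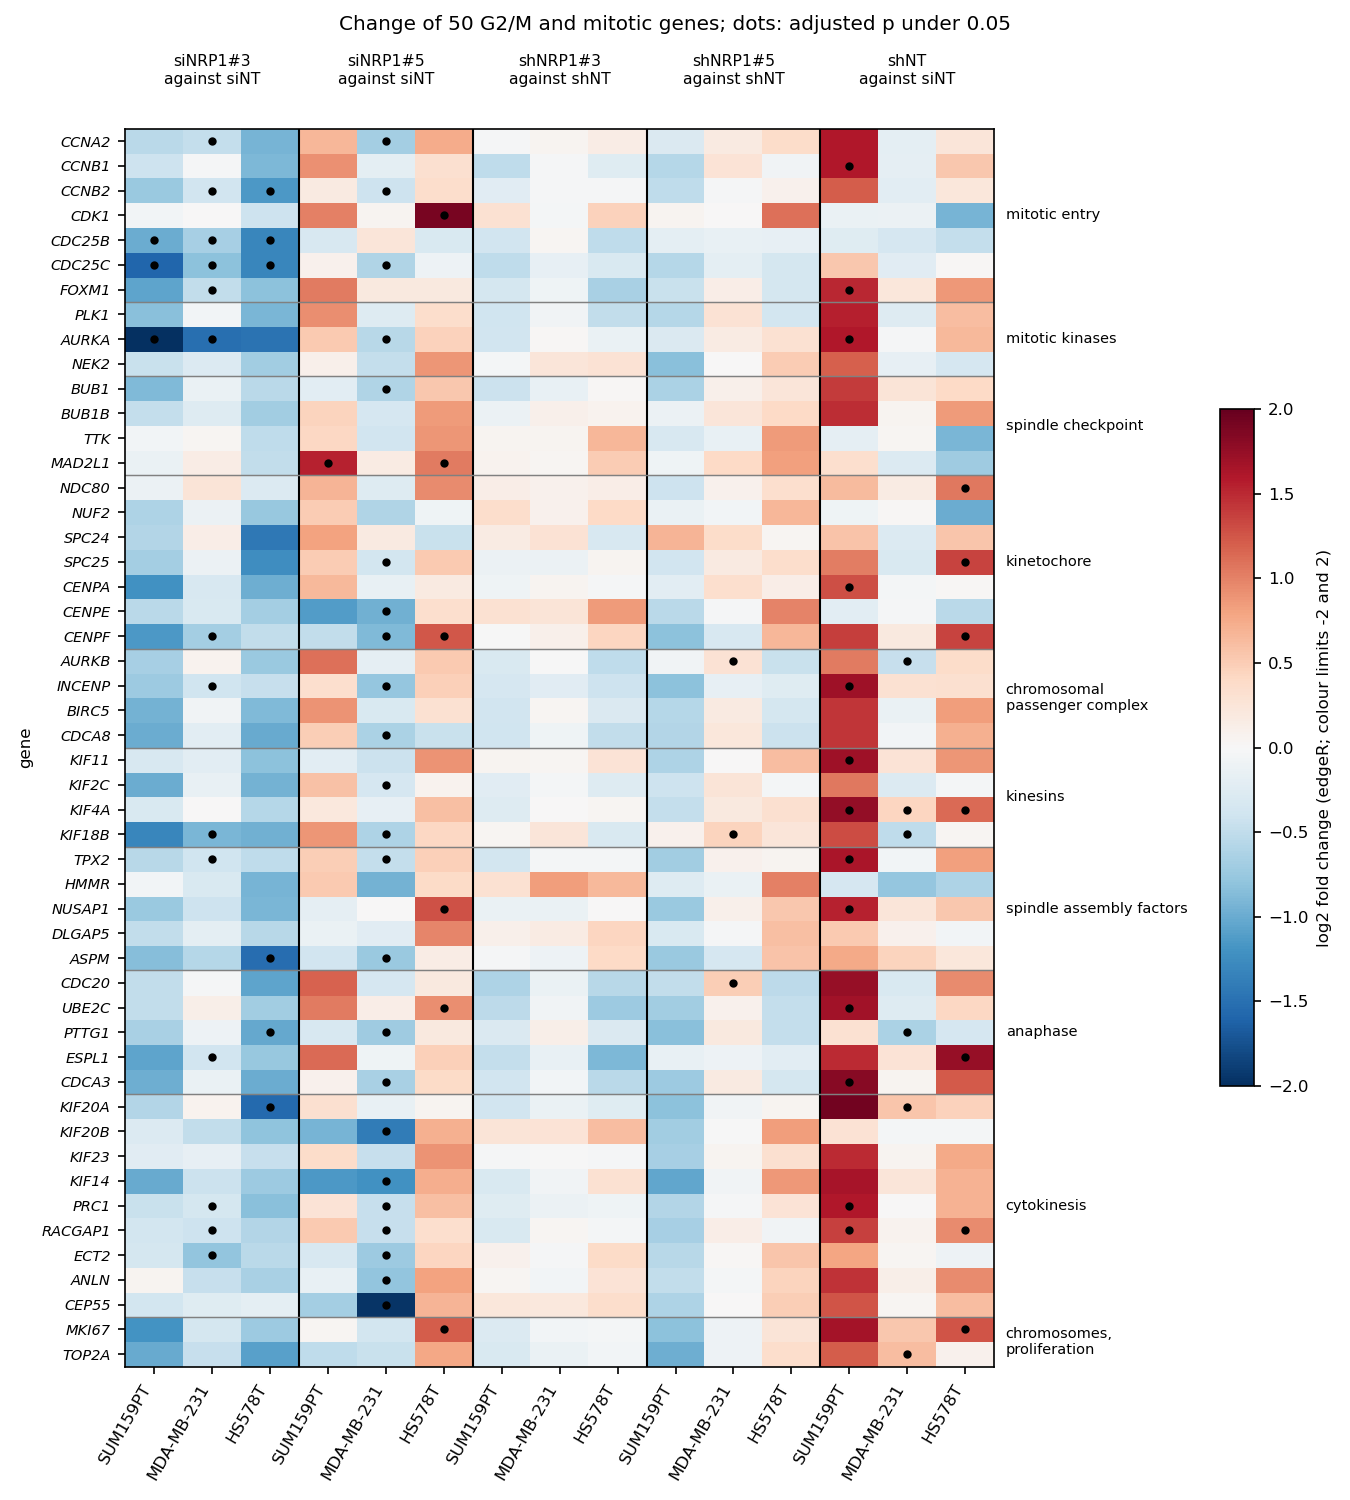
Log2 fold change of each of the 50 genes (rows, grouped by role) in the 15 comparisons (columns), with colours limited to -2 and 2; dots mark adjusted p under 0.05 by edgeR's quasi-likelihood test. Most values in the siNRP1#3 columns are negative (49, 41 and 50 of 50 in SUM159PT, MDA-MB-231 and HS578T), and the dots in the MDA-MB-231 siNRP1#5 column, 23 in all, are lower.

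The hairpins lower the same gene in cells selected for the vector, and few of the 50 genes passed the test with them. With shNRP1#3 none passed in SUM159PT, MDA-MB-231 or HS578T, against 1.4%, 3.65% and 0.0356% of all genes in either direction. At an unadjusted p under 0.05 there were 0, 1 and 1 genes by edgeR, and DESeq2 called 0 in each line. The medians were -0.23, -0.02 and -0.03, and every shNRP1#3 sample was below every shNT sample for 2 genes (14.8% of all genes), 4 (17.3%) and 1 (10.2%). With shNRP1#5 none passed in SUM159PT (5.94% of all genes) or HS578T (0.946%), with 1 and 2 genes at an unadjusted p under 0.05 and 0 by DESeq2. With the replicate number as a block, 6 passed in SUM159PT, all lower, and the share of all genes in that fit was not kept. Over all genes, the deviations of same-number shNT and shNRP1#5 samples in SUM159PT correlated at -0.0969 to 0.567. The summed level of the 50 genes was lower with shNRP1#5 in each same-number pair, at 4708, 4089 and 6291 CPM against 6711, 6244 and 9569 CPM with shNT. The median in SUM159PT was -0.56, with 47 of 50 negative, and 19 genes had every shNRP1#5 sample below every shNT sample, against 16.4% of all genes. In HS578T the median was 0.28, and 13 genes had every shNRP1#5 sample above every shNT sample (16.3%).

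In MDA-MB-231, 3 genes rose with shNRP1#5 (6% against 8.79% of all genes higher), and 16 had every shNRP1#5 sample above every shNT sample (24.7%). CDC20 was at 277, 265 and 263 CPM with shNT and 372, 398 and 360.5 CPM with shNRP1#5, without overlap, and rose by 0.50 ± 0.13 (adjusted p = 0.0106, edgeR). KIF18B rose by 0.45 ± 0.13 and AURKB, the kinase of the chromosomal passenger complex, by 0.29 ± 0.10 (adjusted p = 0.0172 and 0.0407). None of the 3 calls was left without shNRP1#5 replicate 2, and 1 was left without shNT replicate 2 or shNT replicate 3. The AURKB call was lost in 8 of 13 alternatives, which were the leaving out of each of the 6 samples, size factors of DESeq2 (adjusted p = 0.0567, edgeR) and no filter on low counts (adjusted p = 0.328). With GC content offsets 7 genes passed, 5 higher and 2 lower.

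The shared #5 sequence allowed the siRNA effect to be set against the hairpin effect by an interaction term. The knockdown itself was unequal. In MDA-MB-231 the log2 change of NRP1 was -4.88 ± 0.18 with siNRP1#5 and -1.05 ± 0.15 with shNRP1#5, a difference of -3.83 ± 0.22 (adjusted p = 8.14e-09, edgeR). The difference for NRP1 was -2.01 ± 0.45 in SUM159PT and -0.57 ± 0.35 in HS578T (adjusted p = 0.0315 and 0.536). In MDA-MB-231, 20 of the 50 genes differed, all with the siNRP1#5 effect below the shNRP1#5 effect (40% against 11.4% of all genes in that direction), and the median difference was -0.50. The difference was -1.98 ± 0.38 for CEP55 (adjusted p = 0.00121, edgeR), -1.15 ± 0.38 for KIF14, -1.07 ± 0.18 for KIF18B, -0.83 ± 0.18 for CDC20 and -0.72 ± 0.14 for AURKA. When replicate 2 of the 4 groups was left out, 2 genes passed. None passed in SUM159PT (2.51% of all genes, 4 at an unadjusted p under 0.05) or HS578T (0.854%, 2 at an unadjusted p under 0.05). DESeq2 was not run for this difference. Depth of knockdown, delivery, selection and time of harvest differ between the siRNA and hairpin samples of MDA-MB-231 together and cannot be told apart.

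The non-targeting controls themselves differed in these genes. In SUM159PT, 13 of the 50 were higher in shNT than in siNT and none lower (26% against 5.96% of all genes higher), with a median log2 fold change of 1.37. In HS578T 7 were higher and none lower (14% against 9.14%), with a median of 0.50. In MDA-MB-231, 3 were higher and 3 lower (6% each way against 10.7% higher and 9.85% lower), with a median of 0.00. For 36 of the 50 genes every SUM159PT shNT sample was above every siNT sample, against 19.3% of all genes. The same held for 8 genes in HS578T (17%), and in MDA-MB-231 every shNT sample was below every siNT sample for 12 (17.3%) and above it for 8 (23.2%). In the other direction there were 0 genes in SUM159PT (17.5% of all genes) and 1 in HS578T (19.2%).

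The largest called rise in SUM159PT was that of CDCA3, a trigger of mitotic entry, at 19.2, 15.6 and 39.3 CPM with siNT and 74.1, 74.1 and 120.1 CPM with shNT (1.82 ± 0.54, adjusted p = 0.0353, edgeR). The spindle kinesins KIF4A and KIF11 rose by 1.76 ± 0.53 and 1.69 ± 0.50, INCENP by 1.70 ± 0.42 and UBE2C by 1.68 ± 0.41. UBE2C was at 40.0, 39.1 and 67.3 CPM with siNT and 133, 129.6 and 218 CPM with shNT. TPX2, PRC1, AURKA, CCNB1, NUSAP1, FOXM1, RACGAP1 and CENPA rose by 1.28 to 1.64. KIF20A had a larger estimate, 1.93 ± 0.70, that missed the threshold (adjusted p = 0.0718), and CDK1, TTK and CENPE were at -0.13, -0.18 and -0.21. The count fell to 0 without shNT replicate 3, siNT replicate 1 or siNT replicate 2 and to 2 without shNT replicate 1, and it was 25 without siNT replicate 3. The median stayed between 1.04 and 1.67 in all of these.

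In HS578T, separase (ESPL1), the protease that opens cohesin rings, was at 13.4, 18.3 and 37.7 CPM with siNT and 33.1, 105 and 80.5 CPM with shNT and rose by 1.74 ± 0.47 (adjusted p = 0.0178, edgeR). SPC25 and NDC80 of the NDC80 complex rose by 1.35 ± 0.37 and 1.05 ± 0.33, CENPF by 1.35 ± 0.40, MKI67 by 1.26 ± 0.33, KIF4A by 1.13 ± 0.30 and RACGAP1 by 0.95 ± 0.32. With other lines' reads subtracted 3 genes passed, and the calls for CENPF and MKI67 were among those lost, at log2 changes of 1.42 and 1.31. The count was 0 without shNT replicate 3 or siNT replicate 2, 1 without shNT replicate 2, 2 without siNT replicate 1 and 15 without shNT replicate 1. In MDA-MB-231, securin (PTTG1) fell by 0.64 ± 0.11 in shNT (adjusted p = 0.000627), KIF18B by 0.50 ± 0.13 and AURKB by 0.46 ± 0.10, while KIF4A, KIF20A and TOP2A rose by 0.44 ± 0.11, 0.56 ± 0.13 and 0.62 ± 0.22. TOP2A lost its call without shNT replicate 1 or 3 or siNT replicate 2 or 3, at 0.50 to 0.57. Without shNT replicate 3 the MDA-MB-231 count was 3, and with GC content offsets it was 12, 5 higher and 7 lower.

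**Figure D4:**
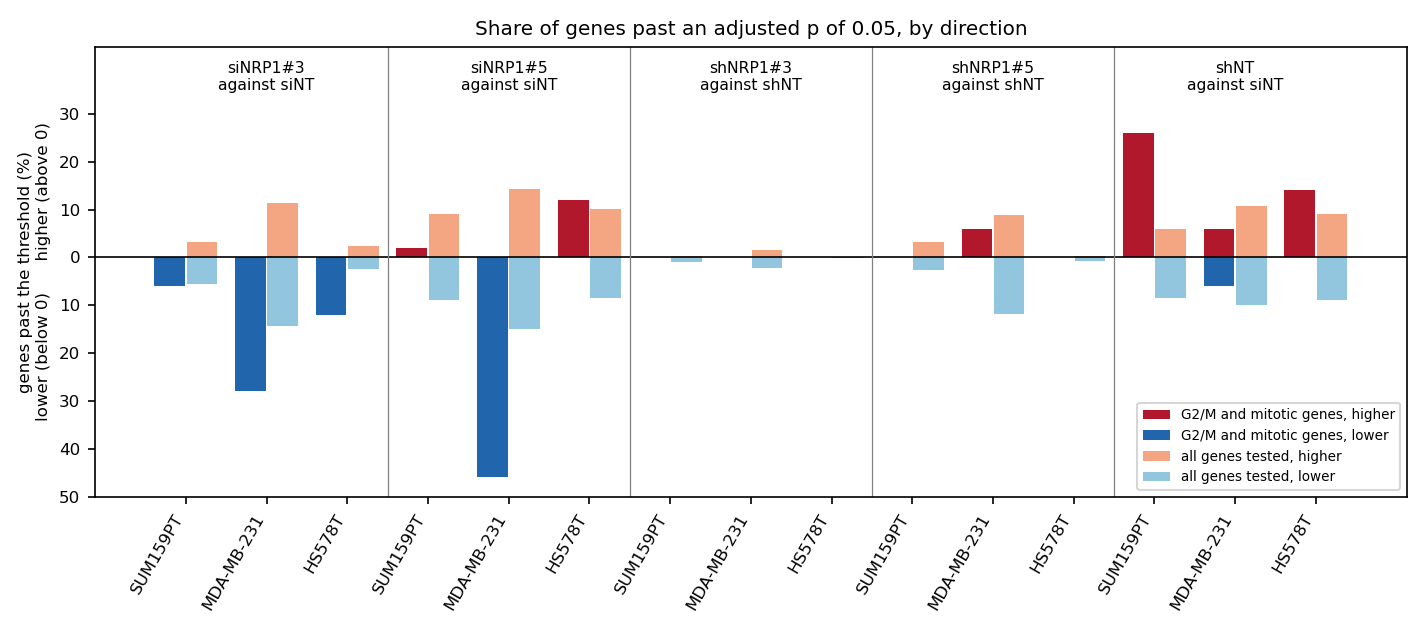
Share (percent, y axis) of the 50 genes and of all genes tested that passed the test in each of the 15 comparisons (x axis), by direction. The members' share of lower genes is above that of all genes for siNRP1#3 and siNRP1#5 in MDA-MB-231 (28% and 46% against 14.3% and 14.9%), and their share of higher genes is above it for shNT against siNT in SUM159PT (26% against 5.96%).

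Whether an effect differed between the 3 lines was tested in a fit of all 52 samples. For siNRP1#5, CENPF and CEP55 differed (adjusted p = 0.0267 and 0.00769 by edgeR's F test), which is 4% of the 50 genes against 18.2% of all genes. For shNT against siNT, 7 genes differed, AURKB, CCNB1, CENPA, INCENP, PRC1, TPX2 and UBE2C (14% against 13.9%), with UBE2C at the smallest adjusted p (0.00514). None differed for siNRP1#3 (3.42% of all genes, 1 member at an unadjusted p under 0.05), shNRP1#3 (0.747%, 0 members) or shNRP1#5 (3.81%, 4 members). DESeq2 was not run for these differences. With other lines' reads subtracted, 0 of the 50 differed for siNRP1#5 and 3 for shNT against siNT. Without replicate 2 or without replicate 3 the siNRP1#5 count was 1, and the shNT count was 0 without replicate 1 or replicate 2 and 3 without replicate 3.

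The genes of mitotic entry are described first by their levels in every group. CCNB1 encodes cyclin B1, the partner of CDK1 at mitotic entry. CCNB1 in SUM159PT averaged 166 ± 85.3 CPM with siNT, 122 ± 74.8 with siNRP1#3, 304 ± 169 with siNRP1#5, 513 ± 128 with shNT, 352 ± 82.3 with shNRP1#3 and 331 ± 87.2 with shNRP1#5. In MDA-MB-231, CCNB1 averaged 217 ± 10.0 CPM with siNT, 210.2 ± 25.1 with siNRP1#3, 188 ± 23.8 with siNRP1#5, 199 ± 6.35 with shNT, 193 ± 28.2 with shNRP1#3 and 238 ± 7.23 with shNRP1#5. In HS578T, CCNB1 averaged 207 ± 68.2 CPM with siNT, 108 ± 22.6 with siNRP1#3, 252 ± 29.9 with siNRP1#5, 286 ± 105 with shNT, 248 ± 109 with shNRP1#3 and 277 ± 101 with shNRP1#5. It passed the test only in SUM159PT shNT against siNT, where the groups did not overlap, and its MDA-MB-231 means lay close together. CDK1 is the kinase that drives mitosis. CDK1 in SUM159PT averaged 79.4 ± 40.7 CPM with siNT, 75 ± 36.5 with siNRP1#3, 155 ± 50.2 with siNRP1#5, 73.6 ± 41.2 with shNT, 88.8 ± 51.8 with shNRP1#3 and 73 ± 14.8 with shNRP1#5. In MDA-MB-231, CDK1 averaged 85.7 ± 17 CPM with siNT, 84.3 ± 24.3 with siNRP1#3, 87.8 ± 29.1 with siNRP1#5, 82.1 ± 16.5 with shNT, 78.8 ± 14.9 with shNRP1#3 and 81.7 ± 9.81 with shNRP1#5. In HS578T, CDK1 averaged 66.1 ± 28.9 CPM with siNT, 49.3 ± 20.8 with siNRP1#3, 249 ± 128 with siNRP1#5, 34.2 ± 5.15 with shNT, 47.7 ± 21.1 with shNRP1#3 and 73.9 ± 5.91 with shNRP1#5. HS578T siNRP1#5 stood above the other HS578T groups and was its only called comparison, with a wide spread between the samples.

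CCNA2 encodes cyclin A2, which acts from S phase to early mitosis. CCNA2 in SUM159PT averaged 36.5 ± 21.5 CPM with siNT, 24.7 ± 17 with siNRP1#3, 55.7 ± 28.2 with siNRP1#5, 113 ± 43.4 with shNT, 109 ± 29.1 with shNRP1#3 and 88.5 ± 17.8 with shNRP1#5. In MDA-MB-231, CCNA2 averaged 92.2 ± 8.18 CPM with siNT, 65.4 ± 11 with siNRP1#3, 56.9 ± 7.16 with siNRP1#5, 83.2 ± 13.4 with shNT, 84.8 ± 7.59 with shNRP1#3 and 94 ± 8.81 with shNRP1#5. In HS578T, CCNA2 averaged 46.2 ± 6.59 CPM with siNT, 23.7 ± 6.3 with siNRP1#3, 76.6 ± 19 with siNRP1#5, 52.6 ± 15.4 with shNT, 59.6 ± 34.3 with shNRP1#3 and 68.6 ± 24.4 with shNRP1#5. Its MDA-MB-231 level fell with both siRNAs (log2 -0.47 ± 0.14 and -0.68 ± 0.14), and it passed the test in no other comparison. FOXM1 encodes a transcription factor of G2 and mitotic genes. FOXM1 in SUM159PT averaged 112 ± 49.2 CPM with siNT, 53.1 ± 30.4 with siNRP1#3, 222 ± 141 with siNRP1#5, 325 ± 47.7 with shNT, 249 ± 59.3 with shNRP1#3 and 228 ± 75.3 with shNRP1#5. In MDA-MB-231, FOXM1 averaged 218 ± 35.7 CPM with siNT, 151 ± 17.3 with siNRP1#3, 245 ± 18.7 with siNRP1#5, 263 ± 13.2 with shNT, 245 ± 9.45 with shNRP1#3 and 288 ± 7.2 with shNRP1#5. In HS578T, FOXM1 averaged 197 ± 90.7 CPM with siNT, 108 ± 34.4 with siNRP1#3, 219.7 ± 37.8 with siNRP1#5, 339.7 ± 169.8 with shNT, 222 ± 91.6 with shNRP1#3 and 274 ± 131 with shNRP1#5. With siNRP1#3 it fell in MDA-MB-231 (-0.50 ± 0.12), and in SUM159PT its estimate of -1.05 ± 0.45 missed the threshold (adjusted p = 0.166, edgeR).

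Of the mitotic kinases, PLK1 acts from mitotic entry to cytokinesis. PLK1 in SUM159PT averaged 122 ± 67.6 CPM with siNT, 66.9 ± 44.8 with siNRP1#3, 222 ± 163 with siNRP1#5, 365 ± 99.4 with shNT, 270.1 ± 115 with shNRP1#3 and 237 ± 102 with shNRP1#5. In MDA-MB-231, PLK1 averaged 235 ± 11.8 CPM with siNT, 222 ± 3.24 with siNRP1#3, 195 ± 32.6 with siNRP1#5, 205 ± 3.23 with shNT, 192 ± 14.8 with shNRP1#3 and 249.7 ± 14.6 with shNRP1#5. In HS578T, PLK1 averaged 195 ± 76.5 CPM with siNT, 100.1 ± 19.4 with siNRP1#3, 242 ± 31 with siNRP1#5, 284 ± 124 with shNT, 207 ± 43.4 with shNRP1#3 and 224 ± 64.9 with shNRP1#5. It passed the test in none of the 15 comparisons, with the HS578T siNRP1#3 estimate at -0.92 ± 0.33 (adjusted p = 0.121, edgeR). AURKA in SUM159PT averaged 55.2 ± 28.1 CPM with siNT, 12.7 ± 6.72 with siNRP1#3, 76.8 ± 49.4 with siNRP1#5, 171 ± 47 with shNT, 128 ± 27.6 with shNRP1#3 and 134 ± 26.6 with shNRP1#5. In MDA-MB-231, AURKA averaged 230.5 ± 15.7 CPM with siNT, 79.8 ± 6.47 with siNRP1#3, 155 ± 21.3 with siNRP1#5, 236 ± 11.4 with shNT, 236 ± 9.54 with shNRP1#3 and 262 ± 6.8 with shNRP1#5. In HS578T, AURKA averaged 112 ± 27.5 CPM with siNT, 39.3 ± 11.1 with siNRP1#3, 151 ± 31.9 with siNRP1#5, 167 ± 73.1 with shNT, 156 ± 101 with shNRP1#3 and 210.4 ± 89.3 with shNRP1#5. siNRP1#3 gave the lowest mean of AURKA in each line, and the shNRP1#3 means were near those of shNT, at log2 changes of -0.39, 0.02 and -0.14 with none called.

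BUB1 and TTK are kinases of the spindle checkpoint. BUB1 in SUM159PT averaged 34.1 ± 19.1 CPM with siNT, 18.1 ± 10.2 with siNRP1#3, 28.5 ± 8.16 with siNRP1#5, 91.1 ± 16.2 with shNT, 66.4 ± 17.1 with shNRP1#3 and 56.4 ± 11.1 with shNRP1#5. In MDA-MB-231, BUB1 averaged 106 ± 8.3 CPM with siNT, 95.4 ± 16.5 with siNRP1#3, 69.2 ± 13.9 with siNRP1#5, 131 ± 10.2 with shNT, 117 ± 9.22 with shNRP1#3 and 139.5 ± 15.9 with shNRP1#5. In HS578T, BUB1 averaged 46.3 ± 4.51 CPM with siNT, 31.5 ± 11.1 with siNRP1#3, 66.8 ± 25.4 with siNRP1#5, 59.1 ± 13.3 with shNT, 61.4 ± 36 with shNRP1#3 and 70.9 ± 17 with shNRP1#5. BUB1 fell in MDA-MB-231 siNRP1#5 (-0.60 ± 0.14) and in no other comparison. TTK in SUM159PT averaged 39.5 ± 24.7 CPM with siNT, 37 ± 20.0 with siNRP1#3, 51.1 ± 28.3 with siNRP1#5, 35.3 ± 11.2 with shNT, 36.1 ± 16.4 with shNRP1#3 and 26.9 ± 2.0 with shNRP1#5. In MDA-MB-231, TTK averaged 33 ± 6.81 CPM with siNT, 33.4 ± 9.6 with siNRP1#3, 24.9 ± 8.15 with siNRP1#5, 35.2 ± 6.95 with shNT, 35.9 ± 6.27 with shNRP1#3 and 31.6 ± 5.94 with shNRP1#5. In HS578T, TTK averaged 37.7 ± 23.2 CPM with siNT, 26.5 ± 17.4 with siNRP1#3, 70.7 ± 38.7 with siNRP1#5, 19.6 ± 3.02 with shNT, 31.5 ± 15.8 with shNRP1#3 and 35.5 ± 1.84 with shNRP1#5. TTK passed in none of the comparisons, and single samples of one group differed widely, as in HS578T siNT at 53.9, 48.1 and 11.1 CPM.

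CENPF is a large kinetochore protein that accumulates in G2. CENPF in SUM159PT averaged 52 ± 32.8 CPM with siNT, 22.8 ± 13.5 with siNRP1#3, 35.8 ± 3.14 with siNRP1#5, 136 ± 43 with shNT, 132 ± 65.6 with shNRP1#3 and 73.8 ± 19.4 with shNRP1#5. In MDA-MB-231, CENPF averaged 136 ± 25.9 CPM with siNT, 83.5 ± 5.21 with siNRP1#3, 73.1 ± 26.4 with siNRP1#5, 162 ± 25.5 with shNT, 171 ± 28.9 with shNRP1#3 and 128 ± 29.6 with shNRP1#5. In HS578T, CENPF averaged 25.1 ± 9.84 CPM with siNT, 17.7 ± 6.15 with siNRP1#3, 59.8 ± 21.8 with siNRP1#5, 62.1 ± 23.3 with shNT, 85 ± 53.9 with shNRP1#3 and 99.4 ± 11.2 with shNRP1#5. It fell with both siRNAs in MDA-MB-231 and rose in HS578T with siNRP1#5 and in shNT. The HS578T calls for CENPF were lost with other lines' reads subtracted, at log2 changes of 0.91 and 1.42, and without some single samples. In MDA-MB-231 its siNRP1#3 call was lost in 4 of 13 alternatives. AURKB and BIRC5 (survivin) belong to the chromosomal passenger complex. AURKB in SUM159PT averaged 39.8 ± 6.22 CPM with siNT, 24.8 ± 12.6 with siNRP1#3, 82.8 ± 32.6 with siNRP1#5, 83.4 ± 21.4 with shNT, 66.3 ± 22.4 with shNRP1#3 and 76.1 ± 12 with shNRP1#5. In MDA-MB-231, AURKB averaged 154 ± 15.2 CPM with siNT, 158 ± 5.64 with siNRP1#3, 135 ± 11.4 with siNRP1#5, 116 ± 2.94 with shNT, 114 ± 5.58 with shNRP1#3 and 141 ± 4.15 with shNRP1#5. In HS578T, AURKB averaged 155 ± 61.6 CPM with siNT, 89 ± 27.1 with siNRP1#3, 217 ± 27.8 with siNRP1#5, 191 ± 68.7 with shNT, 137 ± 16 with shNRP1#3 and 143 ± 17.6 with shNRP1#5. Only MDA-MB-231 comparisons passed for AURKB, higher with shNRP1#5 and lower in shNT than in siNT. BIRC5 in SUM159PT averaged 118 ± 37.5 CPM with siNT, 60.1 ± 45.9 with siNRP1#3, 212 ± 130.2 with siNRP1#5, 326 ± 65.5 with shNT, 244 ± 50.3 with shNRP1#3 and 211 ± 61.6 with shNRP1#5. In MDA-MB-231, BIRC5 averaged 193 ± 17.6 CPM with siNT, 179.8 ± 8.07 with siNRP1#3, 155 ± 30.2 with siNRP1#5, 182 ± 5.66 with shNT, 184 ± 12.9 with shNRP1#3 and 204 ± 17 with shNRP1#5. In HS578T, BIRC5 averaged 196 ± 63.9 CPM with siNT, 102 ± 30.1 with siNRP1#3, 235 ± 13 with siNRP1#5, 334 ± 123 with shNT, 279 ± 39.6 with shNRP1#3 and 267 ± 76.7 with shNRP1#5. BIRC5 passed in no comparison, and its SUM159PT shNT mean stood highest there (1.44 ± 0.51 against siNT, adjusted p = 0.0683, edgeR).

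TPX2 carries AURKA to spindle microtubules and activates it. TPX2 in SUM159PT averaged 117 ± 47 CPM with siNT, 77.9 ± 40.5 with siNRP1#3, 158 ± 67.2 with siNRP1#5, 371 ± 71.9 with shNT, 280.2 ± 90.4 with shNRP1#3 and 219.5 ± 67.8 with shNRP1#5. In MDA-MB-231, TPX2 averaged 449 ± 22.1 CPM with siNT, 335 ± 16.7 with siNRP1#3, 318 ± 11 with siNRP1#5, 451 ± 14.7 with shNT, 434 ± 27 with shNRP1#3 and 478 ± 31.1 with shNRP1#5. In HS578T, TPX2 averaged 244 ± 83.1 CPM with siNT, 167 ± 46.7 with siNRP1#3, 335 ± 62.8 with siNRP1#5, 411 ± 114 with shNT, 410.1 ± 157 with shNRP1#3 and 436 ± 127 with shNRP1#5. In MDA-MB-231 TPX2 fell with both siRNAs (-0.39 ± 0.09 and -0.48 ± 0.09). CDC20 switches on the anaphase-promoting complex. CDC20 in SUM159PT averaged 141 ± 105 CPM with siNT, 98.3 ± 66.1 with siNRP1#3, 308 ± 251 with siNRP1#5, 483 ± 119.7 with shNT, 308 ± 110.0 with shNRP1#3 and 329 ± 147 with shNRP1#5. In MDA-MB-231, CDC20 averaged 320.2 ± 37.5 CPM with siNT, 310.2 ± 31.2 with siNRP1#3, 250.2 ± 41.3 with siNRP1#5, 268 ± 7.74 with shNT, 241 ± 22.6 with shNRP1#3 and 377 ± 19.2 with shNRP1#5. In HS578T, CDC20 averaged 374 ± 145 CPM with siNT, 175 ± 64.1 with siNRP1#3, 415 ± 33.9 with siNRP1#5, 686 ± 257 with shNT, 476 ± 50.0 with shNRP1#3 and 486 ± 145 with shNRP1#5. Its one called change was the rise with shNRP1#5 in MDA-MB-231. KIF20A works at the central spindle in cytokinesis. KIF20A in SUM159PT averaged 55.5 ± 43.4 CPM with siNT, 36.3 ± 26.1 with siNRP1#3, 66.4 ± 58.8 with siNRP1#5, 216 ± 37.5 with shNT, 162 ± 47 with shNRP1#3 and 117 ± 45.4 with shNRP1#5. In MDA-MB-231, KIF20A averaged 82 ± 5.74 CPM with siNT, 84.4 ± 8.74 with siNRP1#3, 73.4 ± 16.7 with siNRP1#5, 126 ± 14.8 with shNT, 113 ± 12.2 with shNRP1#3 and 119 ± 3.99 with shNRP1#5. In HS578T, KIF20A averaged 169 ± 58.7 CPM with siNT, 55.7 ± 15.1 with siNRP1#3, 172 ± 41.3 with siNRP1#5, 222 ± 72.4 with shNT, 192 ± 71.3 with shNRP1#3 and 236 ± 82.2 with shNRP1#5. The HS578T siNRP1#3 samples, at 39.2, 58.8 and 69 CPM, were all below those of siNT, at 122, 151 and 235 CPM.

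MKI67 coats mitotic chromosomes and is the Ki-67 marker of cycling cells, and TOP2A untangles DNA before chromosomes separate. MKI67 in SUM159PT averaged 109.7 ± 74.5 CPM with siNT, 46.7 ± 28.5 with siNRP1#3, 108 ± 65.2 with siNRP1#5, 352 ± 106 with shNT, 286 ± 128 with shNRP1#3 and 191 ± 115 with shNRP1#5. In MDA-MB-231, MKI67 averaged 255 ± 55.8 CPM with siNT, 197 ± 14.6 with siNRP1#3, 196 ± 51.4 with siNRP1#5, 384 ± 12.1 with shNT, 362 ± 55.1 with shNRP1#3 and 355 ± 71.1 with shNRP1#5. In HS578T, MKI67 averaged 55.1 ± 3.57 CPM with siNT, 32.6 ± 9.0 with siNRP1#3, 126 ± 44.2 with siNRP1#5, 126 ± 51 with shNT, 125 ± 60.0 with shNRP1#3 and 155 ± 37.2 with shNRP1#5. The HS578T siNRP1#5 and shNT samples were all above the siNT samples. TOP2A in SUM159PT averaged 184 ± 103 CPM with siNT, 89.5 ± 44.5 with siNRP1#3, 125 ± 13.8 with siNRP1#5, 429 ± 174 with shNT, 339.8 ± 165 with shNRP1#3 and 208 ± 65.7 with shNRP1#5. In MDA-MB-231, TOP2A averaged 238 ± 54.3 CPM with siNT, 170.2 ± 18.4 with siNRP1#3, 173 ± 57.6 with siNRP1#5, 381 ± 71.9 with shNT, 343 ± 37.6 with shNRP1#3 and 354 ± 65.7 with shNRP1#5. In HS578T, TOP2A averaged 164 ± 70.8 CPM with siNT, 77.4 ± 34.7 with siNRP1#3, 284 ± 132 with siNRP1#5, 169.8 ± 26 with shNT, 166 ± 59 with shNRP1#3 and 219 ± 34.8 with shNRP1#5. TOP2A passed only in MDA-MB-231 shNT against siNT, and BUB1B, BIRC5, HMMR, DLGAP5, KIF23, SPC24, NEK2, NUF2, PLK1 and TTK passed in none of the 15 comparisons.

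Part of the variation among the 50 genes ran with the GC content of their transcripts, which was examined after the data were seen. The canonical GENCODE v44 transcripts of the 50 genes ranged from 34.3% to 59.1% GC (median 43.8%) and from 715 to 12716 bases (median 2991). Across the 50 genes, Spearman's rho between GC content and log2 fold change was -0.92 for HS578T shNRP1#3, -0.87 for HS578T shNRP1#5 and -0.68 for SUM159PT shNRP1#3. Across all genes with a length the same rho was -0.45, -0.55 and -0.29. These comparisons had the most negative values for the 50 genes. In the other comparisons the members' rho ran from -0.53 for SUM159PT siNRP1#3 to 0.47 for SUM159PT shNT against siNT, so its sign was not the same throughout. The genes of a comparison share their libraries and are not independent replicates. With offsets that remove each sample's trend on GC content, the HS578T medians became -0.14 for shNRP1#3, 0.06 for shNRP1#5 and -0.81 for siNRP1#3.

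**Figure D5:**
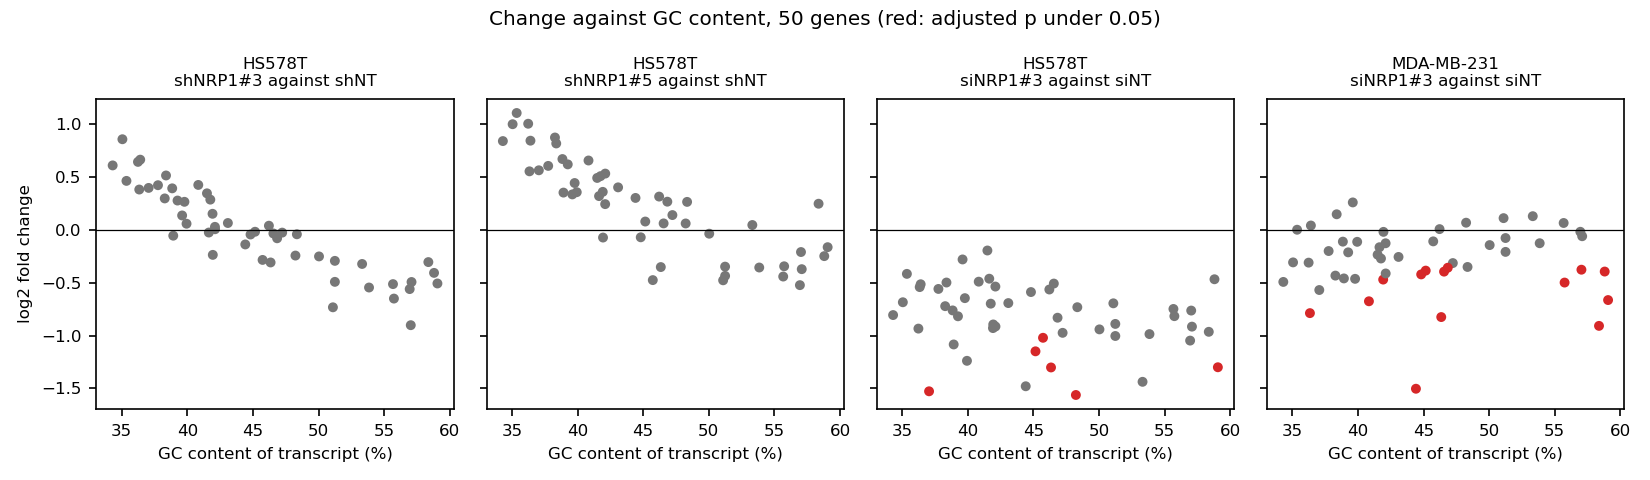
Log2 fold change (y axis) against GC content of the canonical transcript (percent, x axis) for the 50 genes in 4 comparisons; each point is a gene. In HS578T shNRP1#3 and shNRP1#5 the GC-poor genes lie above the GC-rich ones (rho of -0.92 and -0.87).

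A wider set of 50 other mitotic genes, none of them among the members, was read in the same way. Of these, 2 fell in SUM159PT with siNRP1#3 (4% against 5.5% of all genes) and 4 in HS578T (8% against 2.34%), and none rose. In MDA-MB-231, 11 fell with siNRP1#3 (22% against 14.3%) and 2 rose, and 17 fell with siNRP1#5 (34% against 14.9%) and 3 rose. With siNRP1#5, 8 rose in SUM159PT (16% against 9%) and 12 in HS578T (24% against 10.1%), and none fell. The HS578T siNRP1#5 samples are those with 12.9% to 23.0% of the MDA-MB-231 level. With other lines' reads subtracted, a fit added for these lists after their counts were seen, 8 rose with siNRP1#5 and 2 fell with siNRP1#3 in HS578T. In shNT against siNT, 15 rose in SUM159PT (30% against 5.96%) with a median of 1.14, 10 rose in HS578T (20% against 9.14%) and 1 fell, and 6 rose in MDA-MB-231 (12% against 10.7%) and 2 fell. After subtraction 5 rose and 1 fell in HS578T. With the hairpins, MDA-MB-231 shNRP1#5 had 7 higher (14% against 8.79%) and 1 lower (11.9% of all genes), and MDA-MB-231 shNRP1#3 had 1 lower (2% against 2.19%). The SUM159PT and HS578T comparisons had none by edgeR, with 1 or 2 at an unadjusted p under 0.05 in SUM159PT and 1 and 8 in HS578T.

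Of 18 transcription factors and complex subunits that control G2 and mitotic genes, LIN52, a subunit of the MuvB core, fell with both siRNAs in 2 lines. Its mean was 6.15 ± 0.53 CPM in SUM159PT siNT, 2.11 ± 0.60 with siNRP1#3 and 1.87 ± 0.31 with siNRP1#5. In MDA-MB-231 LIN52 was at 12.3 ± 1.34 CPM with siNT, 4.27 ± 0.47 with siNRP1#3 and 3.15 ± 0.33 with siNRP1#5. LIN52 fell by 1.52 ± 0.26 and 1.67 ± 0.30 in SUM159PT and by 1.50 ± 0.14 and 1.95 ± 0.15 in MDA-MB-231, and it fell by 1.27 ± 0.25 with shNRP1#5 in SUM159PT. In HS578T its siRNA estimates were -0.68 ± 0.30 and -0.39 ± 0.30, neither called. MYBL2, the factor that joins MuvB before mitosis, moved both ways. MYBL2 fell with siNRP1#3 in SUM159PT (-1.44 ± 0.41), rose with siNRP1#5 in SUM159PT (1.40 ± 0.44) and MDA-MB-231 (0.95 ± 0.16), and fell with shNRP1#3 in MDA-MB-231 (-0.93 ± 0.16). Over the 18 genes, 2, 3 and 0 passed with siNRP1#3 in SUM159PT, MDA-MB-231 and HS578T, which is 11.1%, 16.7% and 0% against 8.66%, 25.7% and 4.65% of all genes in either direction. With siNRP1#5, 6, 9 and 4 passed (33.3%, 50% and 22.2% against 17.9%, 29.4% and 18.7%), and in shNT against siNT 5, 6 and 8 (27.8%, 33.3% and 44.4% against 14.4%, 20.6% and 17.9%). With other lines' reads subtracted the HS578T counts were 1, 2 and 6. The hairpin comparisons had at most 2 called, in MDA-MB-231 shNRP1#5 (11.1% against 20.7% of all genes in either direction). SUM159PT shNRP1#5 and MDA-MB-231 shNRP1#3 had 1 each (5.56% against 5.94% and 3.65%).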

How the data were processed

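RNA from 52 samples was sequenced as stranded poly(A) libraries. Per the labels and the methods, the authors trimmed reads with Trim Galore 0.6.5, checked them with FastQC 0.11.9, aligned them with STAR 2.7.2b to GRCh38 and quantified genes with RSEM 1.3.3. The authors deposited expected counts per gene, not scaled for depth, and TPM, scaled for length and depth. Transcript-level tables and FPKM values were not used here.

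Expected counts were rounded. Genes with low counts were dropped with filterByExpr, and edgeR 4.0.16 (R 4.3.3, limma 3.58.1) was run with TMM factors and its robust quasi-likelihood test, 1 fit per cell line over 6 group means. Differences between lines came from 1 fit of all samples. The replicate number was not a term of the reported fits. The fit was tested on simulated data. Alternatives were size factors of DESeq2, no filter, DESeq2 1.42.0, only the groups compared, a replicate block, each sample left out, subtraction of reads from other lines (estimated from genes at most 0.5 CPM in a line's own controls and at least 20 CPM in the other line's) and, added after seeing the data, GC content offsets and SUM159PT without siRNA replicate 2. Subtraction was also run for the other lists in HS578T, added after seeing the data. A block is given beside a result where it moved the count of called members by over 1.5 times and the replicate numbers paired the samples, and also for SUM159PT shNRP1#5. Pairing was taken as every same-number correlation of deviations over 0.1 in 3 pairs. They did so in SUM159PT siNRP1#3 (0.31 to 0.52) and shNRP1#3, in MDA-MB-231 siNRP1#5, shNRP1#3 and shNT against siNT, and in HS578T shNRP1#5.

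The 50 genes, the lists (other mitotic genes, transcription factors, DNA replication genes, p53 target genes, claudin-low markers) and the tests were chosen with earlier results of these data known. Genes named were 16 core genes in every group, up to 5 called members with the largest change in each comparison, members called against the majority, up to 3 genes per list and comparison with the smallest adjusted p, and NRP1. Further members were named after their values were seen. Promoter sequences came from RefSeq and transcript lengths from GENCODE.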

Additional observations from a re-analysis of the deposited data

Results flagged for a closer look

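For siNRP1#5 against siNT, 2 of the 50 genes, CENPF and CEP55, changed by amounts that differed between the 3 cell lines by edgeR's F test, which is 4% against 18.2% of all genes. CENPF fell in MDA-MB-231 and rose in HS578T, and CEP55 fell in MDA-MB-231. The HS578T siNRP1#5 samples of this comparison are those with marker genes of other lines. With reads subtracted at the shares read from those markers, 0 of the 50 genes differed. Whether the treatment itself raised the markers was not tested.

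For shNT against siNT, 7 genes differed between the lines, AURKB, CCNB1, CENPA, INCENP, PRC1, TPX2 and UBE2C, which is 14% against 13.9% of all genes. All except AURKB rose in SUM159PT by the test within that line, and AURKB fell in MDA-MB-231. With TMM replaced by the size factors of DESeq2, 3 genes differed.

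In MDA-MB-231, 20 of the 50 genes differed between the siNRP1#5 effect and the shNRP1#5 effect. The siRNA effect was the lower one for all 20, which is 40% against 11.4% of all genes. Both carry the same NRP1 sequence, but NRP1 itself fell further with the siRNA (log2 change -4.88 against -1.05). Without replicate 2, 2 of the 50 genes differed. No group held 4 samples, so single samples were not tested for standing apart.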

How the results depend on the processing

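Of the member changes recomputed under the alternatives, 3312 stayed on the same side of the threshold, 174 gained a call and 124 lost one. None changed direction where either fit called the gene, but the 3312 include uncalled genes that changed direction. For KIF20A in SUM159PT siNRP1#5, never called, the log2 change ranged from -1.17 to 1.12. Shares of all genes called were not kept for the alternatives, so member counts there cannot be set against them. Counts of called members moved more often than single changes, and the cause was not tested. Without a filter on low counts they were 18, 14, 8 and 37 in SUM159PT (siNRP1#3, siNRP1#5, shNRP1#5, shNT against siNT) and 24, 16, 3 and 18 in HS578T in the same order, with 13 and 1 for the difference of siNRP1#5 and shNRP1#5 in the pair of lines, and 2, 33, 15 and 35 for differences between lines (siNRP1#3, siNRP1#5, shNRP1#5, shNT against siNT). DESeq2 called 2 and 28 in SUM159PT (siNRP1#5, shNT against siNT), 10 in MDA-MB-231 shNT against siNT, and 11 and 12 in HS578T (siNRP1#3, shNT against siNT). A fit of only the groups compared called 0, 4 and 25 in SUM159PT (siNRP1#5, shNRP1#5, shNT against siNT), 10, 9 and 10 in MDA-MB-231 (siNRP1#5, shNRP1#5, shNT against siNT) and 11 in HS578T siNRP1#5. With the replicate block the counts were 21, 9, 6 and 34 in SUM159PT (siNRP1#3, siNRP1#5, shNRP1#5, shNT against siNT), 25, 15 and 15 in HS578T (siNRP1#3, siNRP1#5, shNT against siNT), 11 and 1 for the siNRP1#5 and shNRP1#5 difference in SUM159PT and HS578T, and 4, 32, 9 and 16 for differences between lines in the order above. Except in SUM159PT siNRP1#3, the numbers in these comparisons did not meet the rule for pairing. Hairpin replicates were consecutive passages, and whether a number marks the same passage in 2 groups is not given in the sources used here. The block moved no other count by over 1.5 times. In these comparisons of 3 pairs, every sample correlated best with its own number only in SUM159PT shNT against siNT. Size factors of DESeq2 gave 3 for the shNT difference between lines. Subtraction of other lines' reads gave 3 for HS578T shNT against siNT, and 0 and 3 for the siNRP1#5 and shNT differences between lines. GC content offsets, added after seeing the data, gave 7 and 12 in MDA-MB-231 (shNRP1#5, shNT against siNT), 12 in HS578T siNRP1#3 and 1 for the HS578T siNRP1#5 and shNRP1#5 difference. SUM159PT without siRNA replicate 2, also added, gave 9, 2, 24 and 5 (siNRP1#5, shNRP1#5, shNT against siNT, siNRP1#5 and shNRP1#5 difference). With single samples left out the counts ranged from 0 to 1 and 0 to 25 in SUM159PT (siNRP1#5, shNT against siNT), from 9 to 15, 0 to 2 and 3 to 7 in MDA-MB-231 (siNRP1#3, shNRP1#5, shNT against siNT), from 2 to 8, 2 to 8 and 0 to 15 in HS578T (siNRP1#3, siNRP1#5, shNT against siNT), from 2 to 20 for the MDA-MB-231 siNRP1#5 and shNRP1#5 difference, and from 1 to 2 and 0 to 3 for the siNRP1#5 and shNT differences between lines. A lone sample left in a group was assumed to vary like the other groups.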

Other observations

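Genes of DNA replication, the step before G2, were read from a list of 30. In HS578T 22 were higher in shNT than in siNT (73.3% against 9.14% of all genes) and none lower, with a median log2 fold change of 1.34. In SUM159PT 13 were higher (43.3% against 5.96%) and none lower, with a median of 1.09. MDA-MB-231 had 3 higher and 1 lower (13.3% against 20.6% of all genes in either direction), with a median of 0.07. With siNRP1#5, 10 rose and 1 fell in SUM159PT, 12 rose and 1 fell in HS578T, and 1 rose and 8 fell in MDA-MB-231. In either direction these are 36.7%, 43.3% and 30% of the list against 17.9%, 18.7% and 29.4% of all genes. By direction, 9% of all genes rose and 8.89% fell in SUM159PT, and 10.1% rose and 8.53% fell in HS578T. In MDA-MB-231, where 1 of the list rose and 8 fell, 14.4% of all genes rose and 14.9% fell. The HS578T siNRP1#5 samples held 12.9% to 23.0% of the MDA-MB-231 level, and with other lines' reads subtracted 8 rose and 1 fell with siNRP1#5 and 20 were higher in shNT. MCM7, a subunit of the replicative helicase, averaged 418 ± 51.9 CPM in MDA-MB-231 siNT and 101 ± 16.6 CPM with siNRP1#5. With siNRP1#3, 4 fell in SUM159PT (13.3% against 5.5%), 2 fell in HS578T (6.67% against 2.34%) and 2 rose in MDA-MB-231 (6.67% against 11.4%). Among the hairpin comparisons, MDA-MB-231 shNRP1#5 had 3 higher (10% against 8.79% of all genes) and MDA-MB-231 shNRP1#3 had 1 higher (3.33% against 1.46%). SUM159PT shNRP1#5 had 1 lower (3.33% against 2.7%). The others had none by edgeR, with 1 to 7 at an unadjusted p under 0.05.

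Of 12 p53 target genes, 7 were lower and none higher in shNT than in siNT in SUM159PT (median -1.31), 5 were lower and 2 higher in MDA-MB-231, and 2 were lower in HS578T. In either direction these are 58.3%, 58.3% and 16.7% of the list against 14.4%, 20.6% and 17.9% of all genes. By direction, 8.45%, 9.85% and 8.8% of all genes were lower, and 10.7% were higher in MDA-MB-231. MDM2, the ubiquitin ligase of p53, averaged 35.1 ± 7.81 CPM in SUM159PT siNT, 11.1 ± 0.77 with siNRP1#3 and 9.73 ± 1.31 with siNRP1#5. In MDA-MB-231 MDM2 averaged 35.4 ± 5.43 CPM with siNT, 17.1 ± 1.89 with siNRP1#3 and 13.5 ± 4.57 with siNRP1#5. It fell with both siRNAs in these lines, and in HS578T its siRNA changes of -0.48 and 0.01 were not called. With shNRP1#5, MDM2 rose in SUM159PT by 0.94 and in MDA-MB-231 by 0.74. MDM2 also rose with shNRP1#3 in SUM159PT, by 0.93 (adjusted p = 0.0451, edgeR). The other MDM2 hairpin estimates were not called, at 0.48 for MDA-MB-231 shNRP1#3, 0.83 for HS578T shNRP1#3 and 1.45 for HS578T shNRP1#5. Over the list, siNRP1#3 gave 3, 2 and 0 calls in SUM159PT, MDA-MB-231 and HS578T (25%, 16.7% and 0% against 8.66%, 25.7% and 4.65% of all genes) and siNRP1#5 gave 2, 5 and 3 (16.7%, 41.7% and 25% against 17.9%, 29.4% and 18.7%), with 2 in HS578T after subtraction. The hairpin shNRP1#3 gave 1, 1 and 0 (8.33%, 8.33% and 0% against 1.4%, 3.65% and 0.0356%), and shNRP1#5 gave 4, 6 and 0 (33.3%, 50% and 0% against 5.94%, 20.7% and 0.946%).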
